A study of Rattus norvegicus with 6 samples.

Results

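The semaphorin, ephrin, slit and netrin guidance genes are the ligands and receptors by which one cell attracts, repels or positions another. They were taken here as every gene whose symbol begins with Sema3 to Sema7, Plxn, Nrp1 or Nrp2, Epha, Ephb, Efna or Efnb and a number, Slit1 to Slit3, Robo1 to Robo3, Ntn and a number, or Unc5, with 1 gene of these names, Epha7, left out. On the array 56 of 14217 genes met this rule, each read from its brightest probe set, and 54 of them are guidance genes (27 ligands and 27 receptors). The other 2, Unc50 and Unc5cl, met the rule by the start of their names and were not counted among the netrin receptors.

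RNA had been measured on 6 Affymetrix Rat 230 2.0 arrays, 3 for each of 2 cell fractions of the rat renal inner medulla. Low-speed centrifugation gave the IMCD fraction, rich in inner medullary collecting duct cells, and the nonIMCD fraction held the cells that remained in the supernatant. All animals were male Sprague-Dawley rats, given 1 mg of the diuretic furosemide into the peritoneum 30 min before death. The study's text gives 7 rats and 3 isolations. Collagenase B with hyaluronidase had been applied to all tissue at 37 °C during 75 min. Rats of 6 weeks were the source of IMCD replicate 1 by its age label, and rats of 10 weeks of all remaining arrays. The nonIMCD fraction was thus a mixture of the other cells of the tissue, not a single cell type, and it still held collecting duct transcripts. The labels do not tie rats to arrays, and the study's text describes 3 pairs of fractions without saying which arrays form a pair, so p-values measure the spread between these arrays, which may be partly technical.

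Semaphorins signal through plexins, and the secreted class 3 semaphorins mostly do so with a neuropilin as co-receptor. Ephrins are held at the membrane and bind Eph receptor tyrosine kinases on the neighbouring cell, slits bind Robo receptors, and netrins bind Dcc-type and Unc5 receptors. These systems were first known from growing axons and are also used by blood vessels, immune cells and the branching ducts of the kidney.

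Most guidance genes that differed between the fractions were lower in the collecting duct fraction. Of 56 genes 18 were lower in IMCD, 1 was higher and 37 did not pass (limma, adjusted p under 0.05 over all 31042 probe sets), and 15 of the 18 and the 1 higher gene differed at least 2-fold. Among all genes 15.7% were lower and 10% were higher by the same rule, 25.8% in either direction. The members' shares were 32.1% and 1.79%. The median log2 difference, IMCD minus nonIMCD, was -0.37 over the members and -0.09 over all genes. Sema5a, Epha4 and Sema3g were lower by 19.0-fold, 15.98-fold and 12.8-fold, and Sema4a was 3.79-fold higher. Folds are on the log2(intensity + 16) scale, which understates differences between dim signals, a limit for the dim members. The arrays of the fractions did not overlap for 27 of 56 members (48.2%), 24 with IMCD lower and 3 with IMCD higher, against 48.7% of all genes, 28.7% with IMCD lower and 20% with IMCD higher. With each array centred on its median the difference of the median gene moved up by 0.29, and 3 members were higher and 15 lower, against 2868 higher and 1456 lower of all genes (66.3% of calls higher, against 38.9% as deposited). With bulk RNA, fewer cells of a type and less RNA per cell cannot be told apart.

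**Figure D1:**
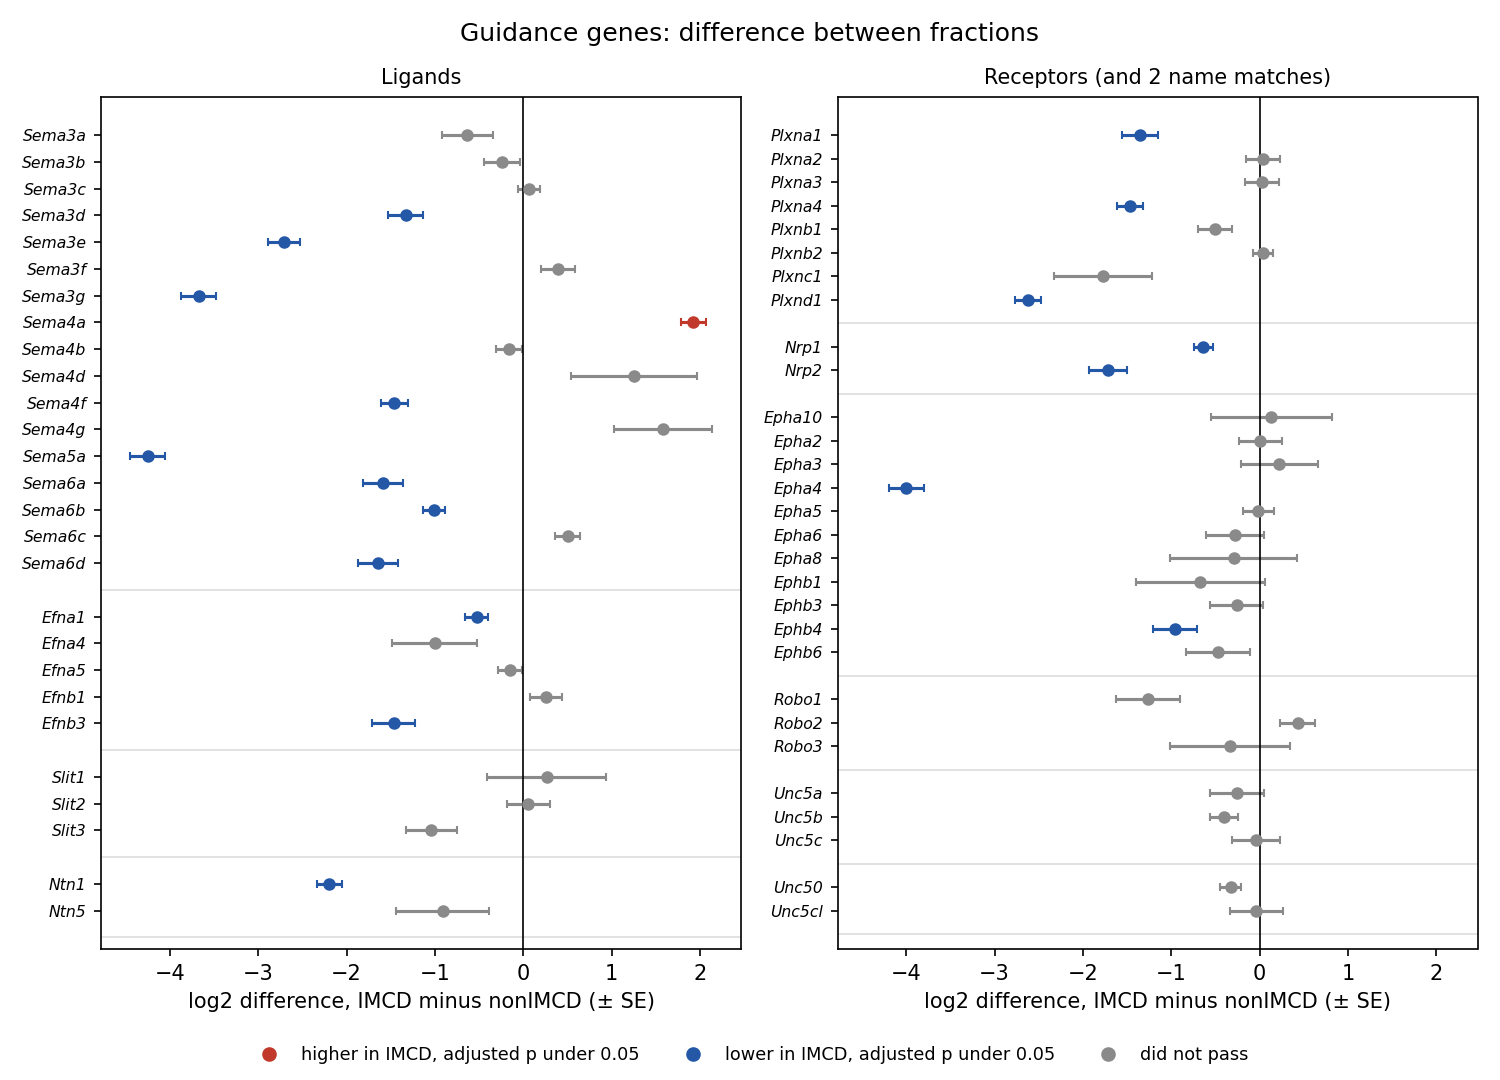
Log2 difference in intensity, IMCD minus nonIMCD, for each of the 56 genes, with bars of 1 SE from the limma fit over 3 arrays per fraction. Ligands are in the left panel and receptors in the right, families are separated by grey lines, and colours mark genes past the threshold. Sema4a is the single point to the right of 0 that passed, and Sema5a and Epha4 lie farthest to the left.

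Collecting duct markers were mostly higher in the fraction labelled IMCD. Most endothelial, thin limb, leukocyte, and interstitial and pericyte markers were lower, and in the other lists some markers passed and others did not. Of 16 principal cell markers of the collecting duct 14 were higher in IMCD, Elf5 (2.56) and Scnn1g (2.48) most. The 2 that did not pass were Aqp2 (0.29, adjusted p = 0.261), whose arrays overlapped, and Slc14a2 (0.33, adjusted p = 0.191). The summed intensity of the 16 lay between 279849 and 298677 in IMCD samples and between 141150 and 183896 in nonIMCD samples. All 13 endothelial markers were lower (summed 16977 to 21239 in IMCD and 85785 to 90678 in nonIMCD), led by Vwf and Slc14a1, the urea transporter of descending vasa recta, at -4.16 and -4.01. Both measured thin limb markers, Bst1 (-4.39) and Aqp1 (-3.48), were lower, with sums of 4519 to 7123 in IMCD and 59036 to 81414 in nonIMCD. Of 14 leukocyte markers 13 were lower (summed 2350 to 3164 in IMCD and 101667 to 129484 in nonIMCD), C1qb (-7.06) and Aif1 (-6.79) most, and C1qb, Aif1, Itgax, Itgam and Cd3e had IMCD means under the highest value of the negative control probe sets, 78.4. Of 14 interstitial and pericyte markers 8 were lower (summed 5570 to 6134 in IMCD and 35274 to 39126 in nonIMCD), Vim (-3.72) and Col3a1 (-2.83) most, with Pdgfra, Col1a2, Lum and Tagln under that value in IMCD. Thick ascending limb markers were lower in 2 of 5 cases, Cldn19 (-1.64) and Cldn16 (-1.33), with sums of 1724 to 6069 in IMCD and 6177 to 9912 in nonIMCD. Slc12a1, Umod and Egf (-1.37, -1.12 and -0.95) did not pass, and each was lowest on IMCD replicate 1. Proximal tubule markers were lower in 2 of 4 cases, Lrp2 (-3.34) and Gatm (-2.54), with sums of 562 to 613 in IMCD and 3636 to 4999 in nonIMCD. Of 6 urothelial markers Trim29 alone was lower (-2.70), with 222, 196 and 237 in IMCD and 1607, 1892 and 1118 in nonIMCD out of sums of 525 to 540.3 in IMCD and 1533 to 2326 in nonIMCD, and Upk1a, Upk1b, Upk2 and Krt5 had IMCD means under the negative control value. Of 5 nerve and glia markers Mbp was higher (1.43) while S100b, Sox10 and Elavl4 had means under the negative control value in both fractions. The 3' to 5' signal of control transcripts also moved with the fraction, the mean log2 ratio being 0.69 ± 0.03 for IMCD arrays and 1.35 ± 0.14 for nonIMCD arrays (SD, n = 3 each). The part of other cell types and of RNA integrity in the guidance gene differences was not tested.

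**Figure D2:**
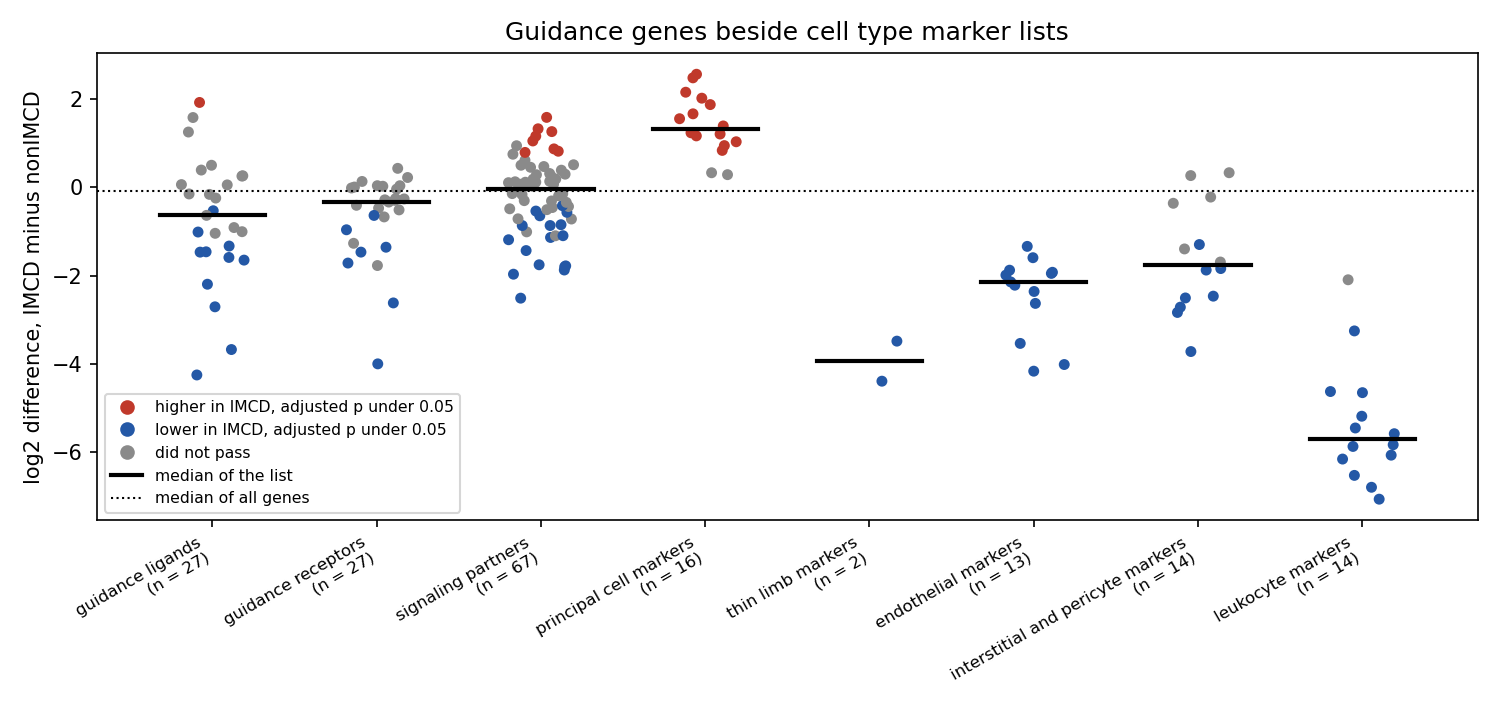
Log2 difference, IMCD minus nonIMCD, of each guidance ligand, guidance receptor, signaling partner and cell type marker (points, spread sideways at random), with the median of each list as a bar and the median of all genes as a dotted line. The guidance lists have medians of -0.63 and -0.33, between those of the principal cell markers (1.31) and of the endothelial markers (-2.14).

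The 250 bases before the annotated start are shown for Sema4a, the 1 guidance gene that was higher in IMCD, and for Sema3e, Sema3g and Plxnd1, a receptor and class 3 ligands that were lower. They are RefSeq sequences of the GRCr8 assembly, from Sema4a at chr2:176212259-176212508, Sema3e at chr4:21510375-21510624 and Plxnd1 at chr4:150715188-150715437 on the minus strand, and Sema3g at chr16:6419775-6420024 on the plus strand. Capitals mark matches, on either strand, to the hypoxia response core ACGTG.
Sema4a: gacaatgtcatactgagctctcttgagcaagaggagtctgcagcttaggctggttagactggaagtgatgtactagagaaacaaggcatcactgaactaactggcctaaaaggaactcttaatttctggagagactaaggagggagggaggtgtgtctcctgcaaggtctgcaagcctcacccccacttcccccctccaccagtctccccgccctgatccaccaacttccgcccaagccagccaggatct
Sema3e: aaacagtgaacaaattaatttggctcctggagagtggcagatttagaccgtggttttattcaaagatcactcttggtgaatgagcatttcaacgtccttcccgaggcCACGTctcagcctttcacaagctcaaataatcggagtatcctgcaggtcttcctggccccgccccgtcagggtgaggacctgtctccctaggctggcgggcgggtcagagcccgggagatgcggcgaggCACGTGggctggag
Sema3g: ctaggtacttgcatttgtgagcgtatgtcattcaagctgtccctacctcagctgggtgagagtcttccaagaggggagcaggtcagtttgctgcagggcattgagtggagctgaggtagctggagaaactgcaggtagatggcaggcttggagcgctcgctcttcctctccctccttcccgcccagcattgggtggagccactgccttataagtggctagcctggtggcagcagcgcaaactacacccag
Plxnd1: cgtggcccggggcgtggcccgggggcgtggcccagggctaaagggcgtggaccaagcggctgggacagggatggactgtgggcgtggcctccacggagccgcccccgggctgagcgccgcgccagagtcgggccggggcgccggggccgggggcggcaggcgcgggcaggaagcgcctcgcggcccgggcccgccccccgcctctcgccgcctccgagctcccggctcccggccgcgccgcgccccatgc
The sequences differ widely in base composition. The Plxnd1 stretch had 83.2% G or C and 37 CpG dinucleotides, and that of Sema4a had 53.2% and 2, against medians of 51.2% and 5 over 33469 RefSeq promoters. The stretch of Sema3e held the hypoxia core at 143 bases before the start and again in a CACGTG at 14 bases, where the matches of both strands overlap, and 16.6% of all promoters hold at least 1. No match to the other motifs searched was found in these 4 windows, namely the GATA factor motif with the letters AGATAA (in 10.3% of all promoters), the ETS motif CCGGAAG (7.27%), the cyclic AMP response element TGACGTCA (1.59%), the tonicity element core TGGAAA (19.7%) and the TATA box letters TATAAA (12.9%). Promoter sequences were matched for 42 of the 56 genes.

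Semaphorins held both the lowest difference of the members and their only call upward. Of 17 semaphorins 1 was called higher (5.88%, against 10% of all genes) and 8 lower (47.1%, against 15.7%). The other 8 missed the threshold, and the median difference was -0.63. Sema4a, a membrane-bound class 4 semaphorin known from immune cells, had intensities of 15539, 19350.3 and 16533 on the IMCD arrays, against 4127, 4596 and 4771 on the nonIMCD arrays. Every IMCD array lay above every nonIMCD array, and the difference was 1.92 ± 0.14 (SE, adjusted p = 0.000787). Sema4a was larger in difference than 99% of all genes, and it was called in all 15 alternatives, at 1.77 to 2.21.

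The other 4 class 4 semaphorins gave 1 lower gene and 3 that did not pass, and of all genes 15.7% were lower. Sema4f had 449, 353 and 407 on the IMCD arrays, against 1242, 1022 and 1142 on the nonIMCD arrays, without overlap and in the opposite direction (-1.46 ± 0.15, SE, adjusted p = 0.00207). Sema4b, also bound to the membrane, had 4709, 5069.7 and 4532 on the IMCD arrays, against 5009, 6178 and 4874 on the nonIMCD arrays, values that overlap (-0.16 with a 95% interval of -0.52 to 0.20, adjusted p = 0.492). Sema4g and Sema4d had large but uncertain differences of 1.58 (adjusted p = 0.0991) and 1.25 (adjusted p = 0.272), with nonIMCD arrays that ranged from 24.3 to 170.2 and from 10.7 to 158.1. Sema4g passed with an intensity trend (adjusted p = 0.0436) and without nonIMCD replicate 1 (2.19, adjusted p = 0.0143), which made 2 members higher in place of 1.

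Among class 3 semaphorins, which are secreted, 3 of 7 were lower (42.9%, against 15.7% of all genes) and 4 did not pass. Sema3g, known from arterial endothelium in mice, had 345, 256 and 380.5 on the IMCD arrays, against 3986, 3982 and 5047 on the nonIMCD arrays. The fractions were far apart, at -3.67 ± 0.20 (SE, adjusted p = 0.00036), and a dimmer second probe set gave -2.13. Sema3e, which can bind Plxnd1 without a neuropilin, had 313, 364 and 309 on the IMCD arrays, against 2466, 2516 and 1781 on the nonIMCD arrays. Its difference was -2.71 ± 0.18 (SE, adjusted p = 0.000578). Sema3d had 393, 339 and 424 on the IMCD arrays, against 1257, 827 and 931 on the nonIMCD arrays, again without overlap (-1.33 ± 0.20, SE, adjusted p = 0.00697).

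Sema3c, also secreted, had nearly level values. Its intensities were 10249, 9709.8 and 8862 on the IMCD arrays, against 9097, 9606 and 8866 on the nonIMCD arrays, which overlap closely, and the difference was 0.06 with a 95% interval of -0.24 to 0.37 (adjusted p = 0.765). The other class 3 genes that did not pass were Sema3f (0.39, adjusted p = 0.213), Sema3b (-0.24, adjusted p = 0.447) and Sema3a (-0.63, adjusted p = 0.185). Sema3a lay under the highest negative control value on all 6 arrays, so no level can be read for it. Among the protein-coding genes of the RefSeq annotation of GRCr8, Sema3a and Sema3d are neighbours on chromosome 4. By the same count 4 genes lie between Sema3c and Sema3e on that chromosome.

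Sema5a, a transmembrane semaphorin with thrombospondin repeats, had the lowest difference of all members. Its intensities were 159, 146 and 230.4 on the IMCD arrays, against 3837, 3756 and 3288 on the nonIMCD arrays, every IMCD value being a small fraction of every nonIMCD value. The difference was -4.25 ± 0.20 (SE, adjusted p = 0.000264), and only 0.689% of all genes had a lower one. Of its 3 dimmer probe sets 2 were also lower (-3.08 and -2.18), and 1, under the highest negative control value on all 6 arrays, did not pass (-0.52, adjusted p = 0.384). The mean of all 4 probe sets gave -2.51 (adjusted p = 0.000258).

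Class 6 semaphorins, which are transmembrane ligands of A plexins, were lower in 3 of 4 cases (75%, against 15.7% of all genes). Sema6d had 286, 428 and 451 on the IMCD arrays, against 1195, 1061 and 1463 on the nonIMCD arrays (-1.65 ± 0.23, SE, adjusted p = 0.00525). Sema6a had 108, 143 and 159 on the IMCD arrays, against 511, 335 and 490.0 on the nonIMCD arrays (-1.59 ± 0.23, SE, adjusted p = 0.00597). In neither gene did the fractions overlap. Sema6b was also lower, by a smaller step (-1.01 ± 0.13, SE, adjusted p = 0.00396). Sema6c did not pass at its brightest probe set (0.50 ± 0.14, adjusted p = 0.0541), although its 3 IMCD arrays (300.1 to 378.1) all lay above its nonIMCD arrays (218.3 to 251.6). A dimmer Sema6c probe set was higher (1.49, adjusted p = 0.036), and another gave -0.12 (adjusted p = 0.841). Sema6c also passed at its brightest probe set in 4 of 15 alternatives (0.43 to 0.79). For Sema6a, 1 of 4 dimmer probe sets was lower and 3 did not pass, and the mean of all 5 gave -0.60 (adjusted p = 0.0437).

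**Figure D3:**
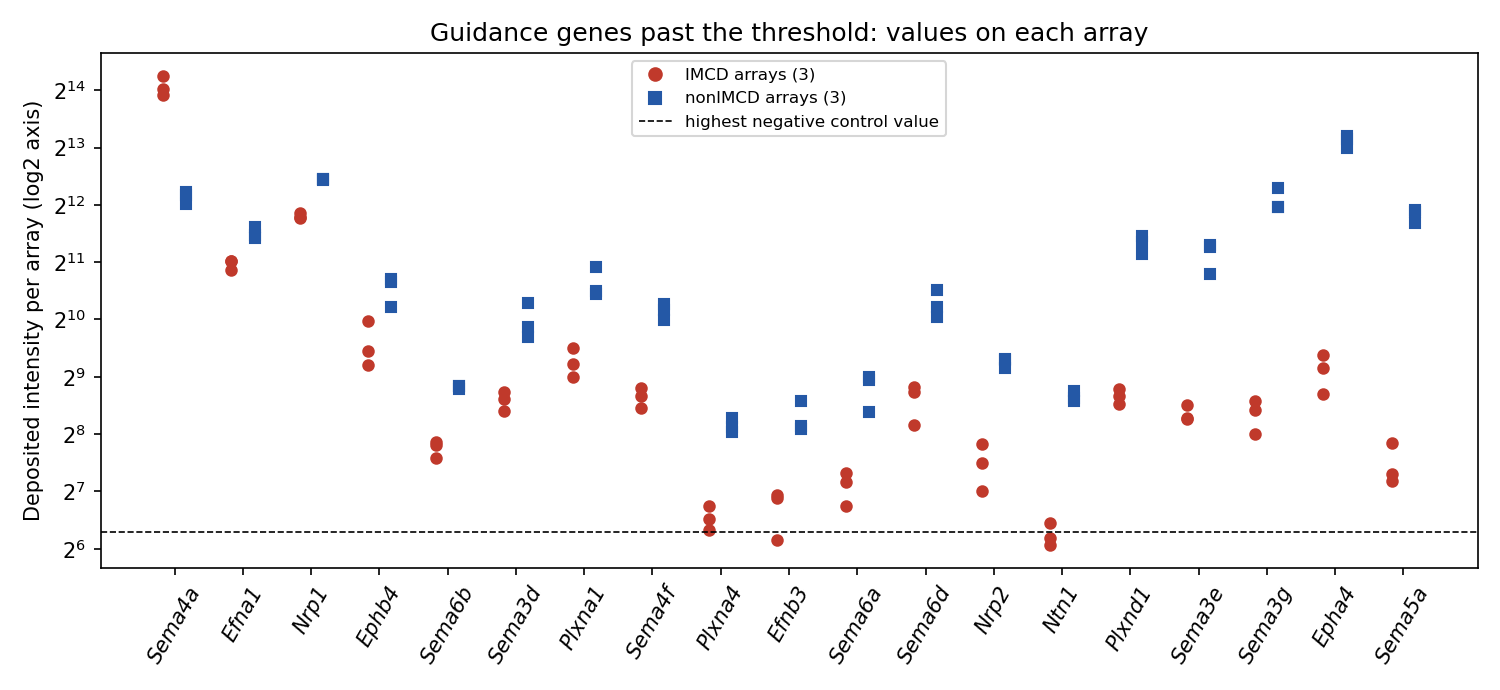
Deposited intensity on each array, on a log2 axis, for the 19 guidance genes past the threshold, ordered by their difference. Circles are the 3 IMCD arrays, squares the 3 nonIMCD arrays, and the dashed line is the highest negative control value (78.4). For each of these genes the fractions do not overlap. Ntn1 lies under the dashed line on IMCD replicates 1 and 2, and Efnb3 on IMCD replicate 1.

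Among the semaphorin receptors 3 of 8 plexins (37.5%) and both neuropilins were lower, and 0 were higher. Of all genes 15.7% were lower and 10% were higher. Limma gave 0 higher calls among all 27 receptors, including Eph, Robo and Unc5 genes. At the brightest probe sets none had a positive difference with an unadjusted p under 0.05, though a dimmer Plxna2 probe set did (0.83, unadjusted p = 0.0194). Plxnd1, a receptor known for patterning blood vessels, had 404, 439.6 and 367 on the IMCD arrays, against 2599.9, 2823 and 2267 on the nonIMCD arrays. The difference was -2.62 ± 0.15 (SE, adjusted p = 0.000397), close in size to the -2.71 of its ligand Sema3e. Plxna4 had 80.1, 107 and 91.6 on the IMCD arrays, against 279.7, 262 and 312 on the nonIMCD arrays (-1.47 ± 0.15, SE, adjusted p = 0.00201). Plxna1 had 509, 595 and 725 on the IMCD arrays, against 1442, 1931 and 1391 on the nonIMCD arrays (-1.36 ± 0.20, SE, adjusted p = 0.00713). Both are A plexins that serve class 3 and class 6 semaphorins, and both had non-overlapping fractions. The Plxna1 call was lost when all its probe sets were averaged (-0.68, adjusted p = 0.0699).

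The remaining plexins did not pass. Plxnb2, a receptor of class 4 semaphorins, had 19511, 20133 and 19909 on the IMCD arrays, against 18819, 18952 and 20284 on the nonIMCD arrays. These values are nearly level, and the difference was 0.04 with a 95% interval of -0.24 to 0.32 (adjusted p = 0.848). Plxnb1 had -0.51 (adjusted p = 0.118) and passed as lower with an intensity trend (adjusted p = 0.0408). Plxna2 and Plxna3 had 0.04 (adjusted p = 0.917) and 0.02 (adjusted p = 0.943). The dimmer Plxna2 probe sets gave -0.01 (adjusted p = 0.988) and 0.83 (adjusted p = 0.0739). In the latter the IMCD arrays (334 to 437) all lay above the nonIMCD arrays (158 to 306). Plxnc1, the receptor of Sema7a, had 44.6, 102 and 8.66 on the IMCD arrays, against 179, 178 and 169.8 on the nonIMCD arrays, and its difference of -1.77 did not pass (adjusted p = 0.0731). Its fractions did not overlap, but its IMCD arrays were far apart. It passed as lower without IMCD replicate 2 (-2.31, adjusted p = 0.0249), and also with a pseudocount of 64, dim probe sets left out, probe sets averaged or an intensity trend (-1.77 to -1.13, adjusted p = 0.0272 to 0.0479).

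Neuropilins are co-receptors for class 3 semaphorins and for vascular endothelial growth factors. Nrp2 had 128, 181 and 228 on the IMCD arrays, against 628, 571 and 635 on the nonIMCD arrays (-1.71 ± 0.22, SE, adjusted p = 0.00395). Nrp1 had 3719.8, 3489 and 3529 on the IMCD arrays, against 5584, 5606 and 5521 on the nonIMCD arrays, a much smaller step with narrow spread in both fractions (-0.64 ± 0.11, SE, adjusted p = 0.0123). A second Nrp1 probe set gave -0.88, while a second Nrp2 probe set, near background, gave 0.86 (adjusted p = 0.358). The Nrp1 call was lost with each array centred on its median (-0.35, adjusted p = 0.0738), and the Nrp2 call with the mean of both its probe sets (-0.43, adjusted p = 0.409).

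Set side by side, the class 3 ligands Sema3d, Sema3e and Sema3g (-1.33, -2.71 and -3.67) and the receptor genes Nrp1, Nrp2, Plxna1, Plxna4 and Plxnd1 (-0.64, -1.71, -1.36, -1.47 and -2.62) were lower in IMCD. Of the same sets Sema3a, Sema3b, Sema3c and Sema3f (-0.63, -0.24, 0.06 and 0.39) and Plxna2 and Plxna3 (0.04 and 0.02) did not pass. Sema4a, higher in IMCD, was set only beside the B plexins Plxnb1 and Plxnb2, which did not pass. Other plexins were not set beside it.

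Among Eph receptors Epha4 had by far the lowest difference. Of 11 Eph receptors 2 were lower (18.2%, against 15.7% of all genes), 0 were higher and 9 did not pass. Epha4, which can bind both A and B ephrins, had 663, 415 and 567 on the IMCD arrays, against 8173, 9369 and 9037 on the nonIMCD arrays. The difference was -4.00 ± 0.20 (SE, adjusted p = 0.00032), and only 0.802% of all genes had a lower one. All 4 Epha4 probe sets were lower, the dimmer ones at -3.32, -2.95 and -2.13. Ephb4, known from venous endothelium, had 591, 696 and 1011 on the IMCD arrays, against 1189, 1663 and 1603 on the nonIMCD arrays, with a difference of -0.96 ± 0.25 (SE, adjusted p = 0.0427). Leaving out 1 array ended this call in 5 of 6 cases, namely IMCD replicate 1 (-0.80, adjusted p = 0.117), IMCD replicate 2 (-0.91, adjusted p = 0.117), nonIMCD replicate 1 (-1.11, adjusted p = 0.0582), nonIMCD replicate 2 (-0.87, adjusted p = 0.12) or nonIMCD replicate 3 (-0.90, adjusted p = 0.109).

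Epha2, an epithelial Eph receptor, had 3304, 2518 and 2416 on the IMCD arrays, against 2321, 3676 and 2321 on the nonIMCD arrays. The fractions overlap, and the difference was 0.01 with a 95% interval of -0.59 to 0.60 (adjusted p = 0.988). Ephb3 had -0.26 (adjusted p = 0.588). The other 7 that did not pass, Epha3, Epha5, Epha6, Epha8, Epha10, Ephb1 and Ephb6, had differences between -0.67 and 0.22, and for 5 of them, Epha3, Epha5, Epha8, Epha10 and Ephb1, both fraction means lay under the highest negative control value.

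Ephrins, the ligands of these receptors, were lower in 2 of 5 cases (40%, against 15.7% of all genes). Efnb3, a transmembrane B ephrin, had 70.9, 119 and 122 on the IMCD arrays, against 274, 383 and 281 on the nonIMCD arrays (-1.47 ± 0.24, SE, adjusted p = 0.0103). Its value of 70.9 lay under the highest negative control value, 78.4. Efna1, an A ephrin anchored to the membrane by lipid, had 2084, 1874 and 2065 on the IMCD arrays, against 2831, 2751 and 3142 on the nonIMCD arrays. The fractions did not overlap but the step was small, -0.53 ± 0.13 (SE, adjusted p = 0.0323). The Efna1 call was lost without any 1 of the 6 arrays (adjusted p = 0.0836, 0.101 and 0.0786 without IMCD replicates 1, 2 and 3, and 0.0843, 0.0651 and 0.0783 without nonIMCD replicates 1, 2 and 3). A second Efna1 probe set gave -0.29 (adjusted p = 0.171).

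Efnb1, another B ephrin, gave an unclear picture. Its brightest probe set had 1253, 1071 and 1486 on the IMCD arrays, against 934, 1030.5 and 1209 on the nonIMCD arrays and did not pass (0.26 with a 95% interval of -0.19 to 0.70, adjusted p = 0.369). Its dimmer probe set had 638.9, 534.0 and 545.6 on the IMCD arrays, against 239.3, 224.5 and 260.5 on the nonIMCD arrays, and was higher (1.19 ± 0.14, SE, adjusted p = 0.00282), as was the mean of both (0.72, adjusted p = 0.00987). Efna5 had -0.15 (adjusted p = 0.481) at its brightest probe set and Efna4 -1.004 (adjusted p = 0.203). A dimmer Efna5 probe set gave 0.83 (adjusted p = 0.0643), its IMCD arrays (150.6 to 199.5) all above its nonIMCD arrays (71.4 to 135.7). In the RefSeq annotation 1 protein-coding gene separates Efna1 and Efna4 on chromosome 2.

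**Figure D4:**
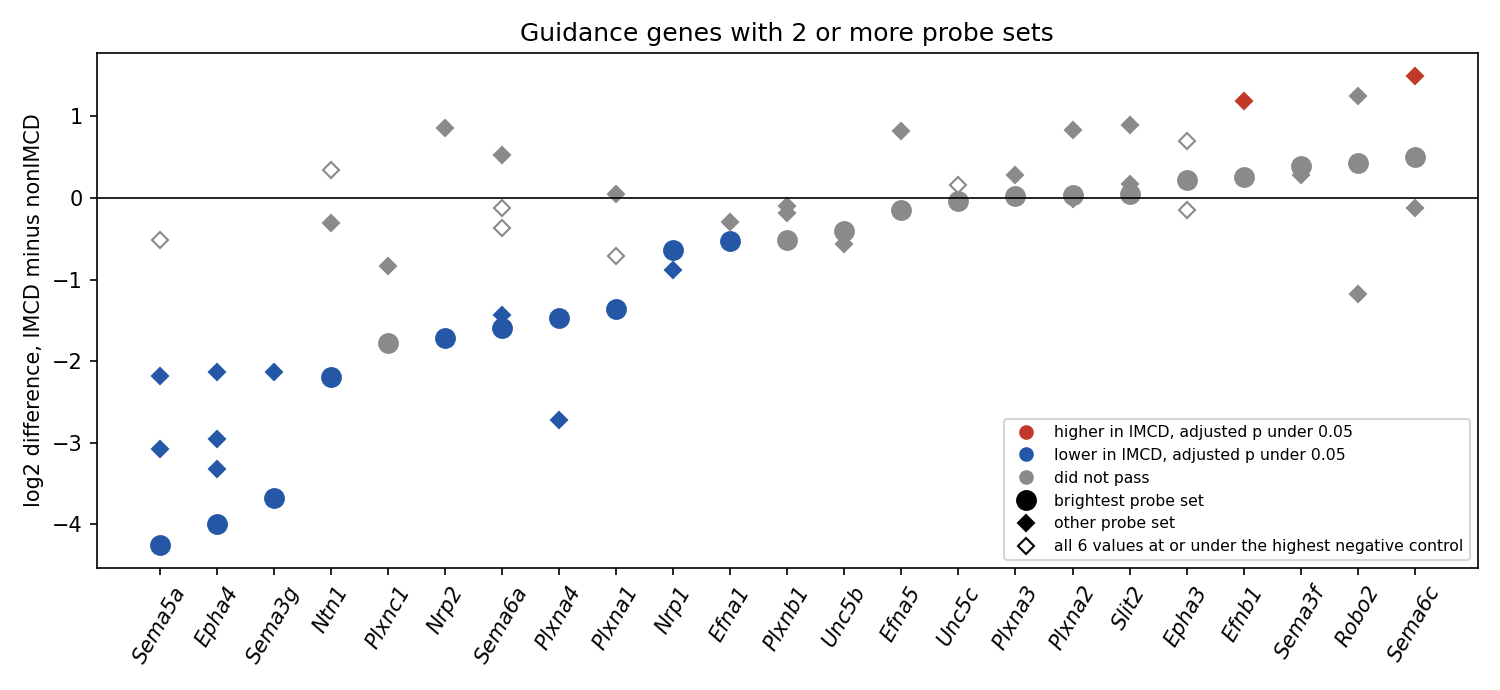
Log2 difference, IMCD minus nonIMCD, of every probe set of the 23 guidance genes that have 2 or more, with large circles for the brightest probe set and diamonds for the others. Open diamonds had all 6 values at or under the highest negative control, and colours mark calls. The 4 Epha4 probe sets are all lower, and the dimmer probe sets of Efnb1 and Sema6c are the 2 red points.

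Slit and Robo genes gave 0 calls by limma among 3 slits and 3 Robo receptors, against 25.8% of all genes called in either direction. The unadjusted p was under 0.05 for Slit3 and Robo1. Slit2, a secreted ligand, had 472, 358 and 298 on the IMCD arrays, against 446, 357 and 281 on the nonIMCD arrays, an almost complete overlap (0.06 with a 95% interval of -0.54 to 0.65, adjusted p = 0.898). Slit3 had 253, 149.9 and 198 on the IMCD arrays, against 519.8, 488 and 292 on the nonIMCD arrays. Robo1, a slit receptor, had 67.3, 148 and 110.3 on the IMCD arrays, against 186, 403 and 269 on the nonIMCD arrays. Neither gene's fractions overlapped, yet the differences of -1.04 ± 0.29 (SE, adjusted p = 0.0521) and -1.27 ± 0.36 (SE, adjusted p = 0.0566) missed the threshold. Both passed as lower in 5 of 15 alternatives, of which 4 were the same, namely a pseudocount of 64, dim probe sets left out, probe sets averaged per gene and an intensity trend (adjusted p = 0.0215 to 0.0388 for Slit3 and 0.0297 to 0.0433 for Robo1). The fifth was leaving out nonIMCD replicate 3 for Slit3 (-1.29, adjusted p = 0.0285) and the replicate block for Robo1 (-1.27, adjusted p = 0.017). Robo2, with 1 protein-coding gene between it and Robo1 on chromosome 11, had 0.43 (adjusted p = 0.189). With median centring Robo2 passed as higher (0.72, adjusted p = 0.0479). Slit1 and Robo3 had 0.26 (adjusted p = 0.823) and -0.33 (adjusted p = 0.772), with arrays from 11.7 to 131.9.

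Among 2 netrin ligands and 3 Unc5 receptors there was 1 call, against 25.8% of all genes called in either direction. Ntn1, the secreted ligand netrin-1, had 73.1, 67.2 and 87.4 on the IMCD arrays, against 384, 430.4 and 395 on the nonIMCD arrays. It was lower (-2.19 ± 0.14, SE, adjusted p = 0.000518), with an IMCD mean under the highest negative control value, so the size of its difference depends on the pseudocount. The 2 dimmer Ntn1 probe sets gave -0.31 (adjusted p = 0.657) and 0.35 (adjusted p = 0.648), and the mean of all 3 did not pass (-0.72, adjusted p = 0.102). Ntn5 had -0.91 (adjusted p = 0.279). Unc5b, a netrin receptor known from vessels, had 601, 547 and 533 on the IMCD arrays, against 743, 879 and 638 on the nonIMCD arrays, without overlap but short of the threshold (-0.41 ± 0.16, SE, adjusted p = 0.13). With its probe sets averaged Unc5b passed as lower (-0.49, adjusted p = 0.0196). Unc5c (-0.04, adjusted p = 0.935) and Unc5a (-0.26, adjusted p = 0.601) did not pass, and Unc5a lay under the negative control value on all 6 arrays. The name matches Unc50 and Unc5cl had -0.33 (adjusted p = 0.1) and -0.04 (adjusted p = 0.943).

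Over the family, probe sets of 1 gene did not contradict each other in direction among calls. Of the 10 genes with several probe sets and a call at the brightest, 6 had another probe set called the same way, 0 had one called the opposite way, and 6 had at least 1 that did not pass. Apart from the 2 brightest of each family, the genes that did not pass and are given above with values were chosen after their values were seen.

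Genes that act with guidance receptors inside the cell or beside them at the membrane divided between the fractions. Of 67 measured partners (of 70 listed) limma called 8 higher and 17 lower, 42 missed the threshold, and the median was -0.05. These are shares of 11.9% higher and 25.4% lower, against 10% and 15.7% of all genes. Among the higher genes Gipc1, an adaptor that binds neuropilin, averaged 5076 ± 671 on IMCD arrays and 1684 ± 263 on nonIMCD arrays (SD, n = 3 each), a difference of 1.58 ± 0.18 (SE, adjusted p = 0.00264). Vav3, an exchange factor used by Eph receptors, differed by 1.26 ± 0.15 (SE, adjusted p = 0.00302). The lower genes were led by Evl, an actin regulator of the Ena/VASP family, at 430.3 ± 88.9 on IMCD arrays and 2498 ± 233 on nonIMCD arrays (SD, n = 3 each), a difference of -2.51 ± 0.19 (SE, adjusted p = 0.000841). Flrt1, of a family of membrane proteins that includes Unc5 ligands, and Fyn, a Src-family kinase used by Eph receptors and plexins, differed by -1.97 ± 0.18 (SE, adjusted p = 0.00154) and -1.87 ± 0.31 (SE, adjusted p = 0.0102). The partner counts moved with single arrays, and they were 5 higher and 9 lower without IMCD replicate 1, 5 higher and 11 lower without IMCD replicate 2, 7 higher and 10 lower without IMCD replicate 3, 5 higher and 8 lower without nonIMCD replicate 1, 6 higher and 8 lower without nonIMCD replicate 2 and 5 higher and 13 lower without nonIMCD replicate 3.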

How the data were processed

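RNA of 3 IMCD and 3 nonIMCD arrays was compared. The deposited values were 1 linear intensity per probe set, with software and version not given in the sources used here. By a check of each array, the trimmed mean, leaving out 2% at each end, was 1000.31 to 1000.37, so the arrays had been scaled alike, and no further normalization was done. Median intensity lay between 270.3 and 273 in IMCD samples and between 330.1 and 341 in nonIMCD samples. Pearson's r between arrays was 0.956 to 0.966 within a fraction and 0.901 to 0.91 between fractions.

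After 57 control probe sets were left out of 31099, log2(intensity + 16) of 31042 probe sets was fitted with limma 3.58.1 in R 4.3.3 (lmFit, eBayes, 2-sided, Benjamini-Hochberg over all probe sets), without a pairing term. Probe sets had 1 gene symbol in 20826 cases, several in 436 and none in 9780, by the platform annotation, and the RefSeq gene table held 20758 of the single ones by ID, with 0 changed. Each of 14217 genes was read from its brightest probe set by mean log2 value. Background was judged by the highest of 3 negative control probe sets, 78.4. The number of arrays limits the precision.

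Members, partners and marker lists were chosen with earlier results of these data known. By the naming rule every member past the threshold, the 2 brightest others of each family, the 3 partners with the largest difference in each direction and up to 2 called genes per marker list were named, except 1 partner that is not reported here. The fit was tested on simulated data. Alternatives were pseudocounts of 1 and 64, median centring, quantile normalization, leaving out dim or multiply matching probe sets, the mean of all probe sets per gene, an intensity trend, a replicate block and leaving out each array.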

Additional observations from a re-analysis of the deposited data

How the results depend on the processing

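Of the 19 guidance calls 13 held under all 15 alternatives, though averaging the probe sets of a gene gave Sema5a -2.51, Sema6a -0.60, Epha4 -3.10, Sema3g -2.90 and Plxna4 -2.10. Ephb4 and Efna1 were lost in 8 each, Nrp1 under median centring (-0.35, adjusted p = 0.0738), and Nrp2, Ntn1 and Plxna1 when all probe sets of a gene were averaged (-0.43, -0.72 and -0.68). The count of lower genes among the 56 was 15 to 23, and the 23, with an intensity trend, included the name match Unc50. The 1 higher guidance gene became 2 with a pseudocount of 64, quantile normalization, dim probe sets left out, all probe sets averaged or an intensity trend, 3 with median centring, and 1 to 2 with an array left out. Higher partners, 8 as deposited, were 14 with median centring, 13 with an intensity trend and 5 to 7 with an array left out. Lower partners, 17 as deposited, were 8 with median centring and 8 to 13 with an array left out. The cause was not tested.

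Differences near 0 changed sign: with median centring Ephb3 (0.026), Efna5 (0.14), Sema4b (0.13) and Unc5c (0.25), with quantile normalization Epha2 (-0.000188), Ephb3 (0.024), Plxnb2 (-0.13), Sema3c (-0.11) and Unc5c (0.22), with averaged probe sets Efna5 (0.34) and Unc5c (0.058), and with arrays left out Epha2 (-0.13 to 0.23), Slit2 (-0.11 to 0.21) and Unc5c (-0.32 to 0.15). Quantile normalization moved the median of all genes by 0.11, with 1667 genes higher and 1817 lower.

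The labels number the arrays of both fractions 1 to 3. Deviations of same-numbered arrays correlated at 0.04, 0.04 and 0.06, each the highest for its array, which is only a hint of pairing. With the replicate block 1 guidance gene was higher and 19 lower, 6 partners were higher and 10 lower, and 994 of all genes were higher and 1595 lower, against 1427 and 2239 without it. It ended the call of Efna1 (adjusted p = 0.0674) and added Robo1 and Efna4 to the lower genes.

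Of the members 11 had an IMCD mean under the highest negative control, 7 of them in both fractions, which limits what their differences can show. Age differed for IMCD replicate 1 alone, and leaving that array out left 16 guidance genes lower and 1 higher.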
